A study of Bos taurus with 6 samples.

Results

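Muscle RNA was sequenced from 3 Angus and 3 Luxi cattle, all 18 months old, and 8 genes of glucose, lactate and energy metabolism were examined here among the 232 entries of the authors' list of breed differences. Angus cattle are bred for beef and Luxi are yellow cattle kept in China. The 8 genes were picked by symbol from that list with their differences already known, so their direction and size are descriptions of the 6 libraries and carry no test. Neither the muscle sampled nor the animals' sex is named in the labels, which also name no treatment for either breed.

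Muscle takes up glucose through membrane transporters of the SLC2A family and traps it as glucose 6-phosphate by hexokinase. The enzyme phosphofructokinase then commits the sugar to glycolysis, under the control of fructose 2,6-bisphosphate, and fructose 1,6-bisphosphatase runs the opposite step. When glycolysis outpaces the mitochondria, lactate leaves the fibre through proton-linked monocarboxylate transporters. The AMP-activated kinase senses a fall in cellular energy, and the salvage pathway rebuilds NAD, a coenzyme of glycolysis, from nicotinamide.

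The authors deposited a mean read count and a mean RPKM, a read count scaled to gene length and sequencing depth, for each breed. Reads per library were worked back from these means, as whole numbers that give the printed count and RPKM. Recovered depths ran from 5429317 to 5736365 reads in Angus and from 5799075 to 6047227 in Luxi, and libraries are named here by depth within their breed, since they could not be tied to an animal. Levels within 1 library are given as RPM, reads scaled to library depth as in RPKM but not to gene length. Where several sets of whole numbers give the same means, each called a solution, the lowest and highest value over all solutions is printed. Of 12 skeletal muscle fibre markers 2 were listed, both higher in Angus. The slow fibre light chain MYL3 had means of 365 RPKM (Angus) and 139 RPKM (Luxi) by the authors' deposited table, and the fast myosin heavy chain MYH4 of 28.3 and 1.00 RPKM. In bulk tissue, fewer cells of a type and less RNA per cell cannot be told apart.

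Of the 8 genes, 6 had the higher mean in Luxi, namely HK2, PFKFB4, SLC16A3, SLC16A6, PRKAG3 and NAMPT. The other 2, SLC2A3 and FBP1, had the higher mean in Angus. Over the whole list 36.6% of the entries were higher in Luxi and 63.4% in Angus, and since the 8 genes were chosen from this contrast nothing is read from that comparison. The 6 genes higher in Luxi had a median ratio of 2.28-fold, beside 2.62-fold over the 63 entries higher in Luxi with reads in both breeds. SLC16A6 had the second largest of those 63 ratios, and the other 5 genes ranked 37 to 55. By their higher breed mean the 8 genes spanned the list, from PFKFB4 at rank 12 of 232 to FBP1 at rank 202.

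**Figure D1:**
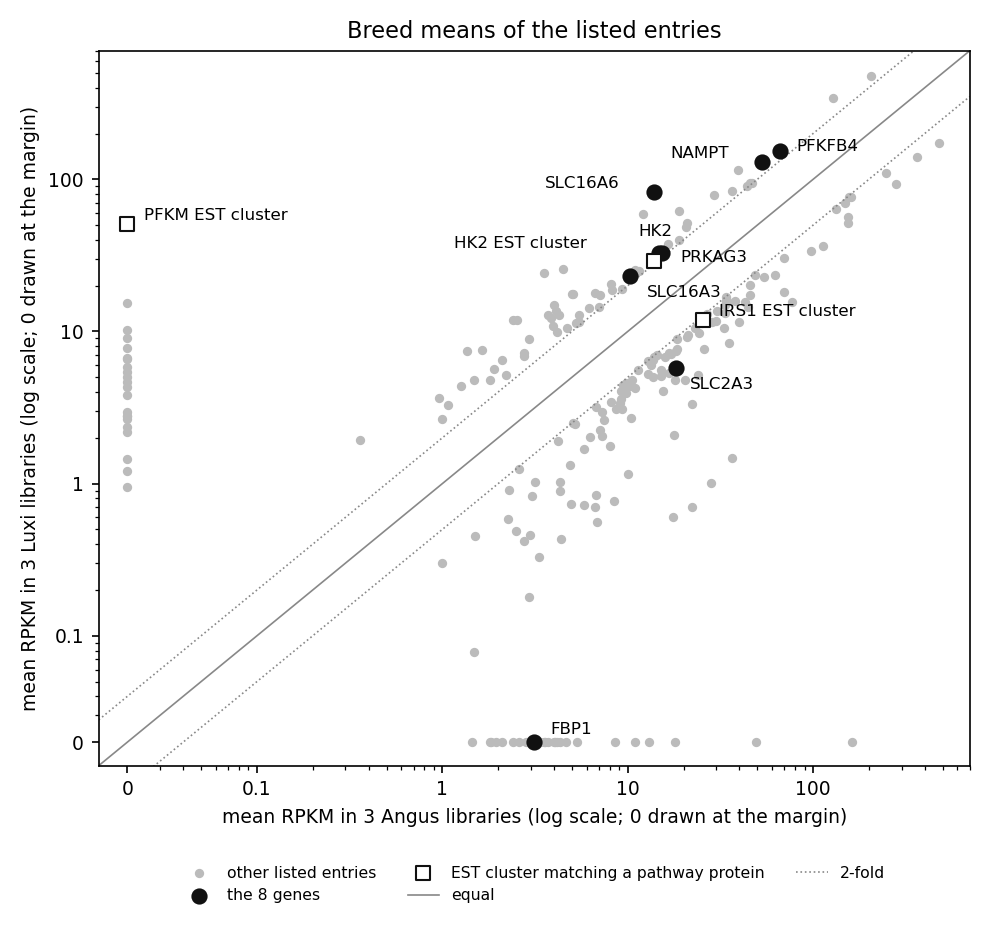
Mean RPKM in the 3 Angus libraries (x axis) against the 3 Luxi libraries (y axis), both on log scales with 0 drawn at the margin, for the 232 listed entries. Filled circles are the 8 genes and open squares are expressed sequence tag (EST) clusters that match a pathway protein; HK2, PRKAG3 and the HK2 cluster lie together near 15 and 32 RPKM, SLC16A6 lies well above the 2-fold line, and FBP1 lies on the Luxi margin at 0.

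Glucose entry was represented by SLC2A3, which encodes GLUT3, a high-affinity glucose transporter best known from neurons and blood cells. SLC2A3 (gene identifier 282358) was 3.14-fold higher in Angus, with means of 18.2 RPKM (Angus) and 5.78 RPKM (Luxi) by the authors' deposited table. The Angus libraries held 885 to 1061 reads in the deepest, 15 to 370 in the middle and 12 to 191 in the shallowest. The Luxi libraries held 21 to 158, 17 to 379 and 18 to 243 reads in the same order.

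One Angus library thus stood above the other 5. The deepest Angus library had at least 154 RPM for SLC2A3, while no other library of either breed had more than 66.3. It held 69.9% to 83.7% of the Angus reads. The breeds overlapped in every solution, since the lowest Angus library had at most 24.0 RPM and the highest Luxi library at least 28.01. With the deepest Angus library left out, the log2 ratio of Luxi over Angus was between -0.54 and 0.32, against -1.65 with all libraries, so the direction was then not determined. Without any other single library SLC2A3 was higher in Angus in every solution.

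Phosphorylation of glucose was represented by HK2, the insulin-regulated hexokinase of muscle and fat. HK2 (gene identifier 788926) had means of 14.8 RPKM (Angus) and 32.8 RPKM (Luxi) by the authors' deposited table, 2.21-fold higher in Luxi. From 617 Angus and 1429 Luxi reads, scaled by mean depth, the log2 ratio had an exact 95% binomial counting interval of 0.99 to 1.27. This interval does not include the spread between animals. From deepest to shallowest, the Angus libraries held 100 to 326, 51 to 507 and 10 to 240 reads. The Luxi libraries held 1 to 434, 3 to 1147 and 281 to 992 reads in that order.

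At least 1 Luxi library exceeded every Angus library for HK2, at 105 RPM or more against at most 90.9. Whether the other Luxi libraries did so could not be settled. The log2 ratio was between -0.60 and 1.73 once the middle Luxi library was left out, and between -0.02 and 1.41 without the shallowest, so the direction was not determined in either case. Without the deepest Luxi library or any Angus library HK2 was higher in Luxi in every solution.

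A separate listed entry, an EST cluster of 874 bases, matched the hexokinase 2 protein in the authors' annotation. It was found after the values were seen. In the authors' deposited table it had means of 13.8 RPKM (Angus) and 29.2 RPKM (Luxi), a 2.12-fold difference in the direction of HK2 itself. Its Angus reads were nearly fixed, at 93 to 95 in the deepest, 62 to 66 in the middle and 44 to 46 in the shallowest library. Its Luxi libraries held 3 to 140, 26 to 388 and 59 to 284 reads. The Angus libraries therefore lay within 8.10 to 16.6 RPM for this cluster, and the highest Luxi library had at least 33.1. With the middle Luxi library left out, the log2 ratio of the cluster was between -1.18 and 1.58, so its direction was not determined there. The cluster comes from the same 6 libraries and, by its match, the same gene, so it is not an independent measurement of the breeds.

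Control of glycolytic flux was represented by PFKFB4, which makes and breaks down fructose 2,6-bisphosphate, the activator of phosphofructokinase. PFKFB4 (gene identifier 534928) had the highest levels of the 8 genes, 66.3 RPKM (Angus) and 154 RPKM (Luxi) by the authors' deposited table, 2.32-fold higher in Luxi. Its Angus libraries held 1030 to 1581 reads in the deepest, 5 to 1117 in the middle and 22 to 583 in the shallowest. Its Luxi libraries held 0 to 1373, 0 to 3630 and 1584 to 3841 reads.

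The breeds overlapped for PFKFB4 in every solution. The highest Angus library had at least 189 RPM, and the lowest Luxi library at most 166. At the other end, the highest Luxi library had at least 406, above the most any Angus library could have, 276. In Angus the deepest library held 47.5% to 72.9% of the reads, and without it the log2 ratio was between 1.54 and 2.45, against 1.21 with all libraries. With the shallowest Luxi library left out, the ratio was between -0.17 and 1.27, so the direction was not determined there.

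The opposing enzyme, FBP1, is the fructose 1,6-bisphosphatase of liver and kidney, also found in monocytes. FBP2, the form typical of muscle, was not analysed here. In the authors' deposited table FBP1 (gene identifier 513483) had an Angus mean of 3.13 RPKM and was listed at 0 for Luxi. Its reads were fixed by a single solution at 67 in the deepest, 1 in the middle and 4 in the shallowest Angus library, and 0 in each Luxi library. A count of 0 over the 3 Luxi libraries was taken to allow up to 3 reads, and against these FBP1 was 24.8-fold higher in Angus. Such a limit leaves out counting error in the 72 Angus reads.

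Nearly all of that difference lay in 1 library, which held 93.1% of the Angus reads. Its 11.7 RPM stood against 0.179 and 0.737 in the other Angus libraries. The Angus libraries all lay above the Luxi libraries, but for the middle one by a single read, within counting error. Without the deepest Angus library 5 Angus reads were left, and the limit on the log2 ratio of Luxi over Angus was -1.44, against -4.63 with all libraries.

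The deepest Angus library also held most of the Angus reads of the listed adipocyte markers, as of other entries. Of 5 adipocyte markers 2 were listed, both higher in Angus. By the authors' deposited table these were the hormone ADIPOQ, with 15.1 RPKM (Angus) and 5.14 RPKM (Luxi), and CIDEC, a protein of fat droplets, with 3.69 RPKM (Angus) and a listing at 0 (Luxi). Of the reads that ADIPOQ had in Angus, 64.9% to 81.9% were in that library, and for CIDEC 62.2%. Of the 147 entries higher in Angus, 18 (12.2%) had more than 2/3 of their Angus reads in the deepest Angus library in every solution, SLC2A3 and FBP1 among them. Neither adipocyte marker was among the 18. Others of the 18 were TPSB1 (76.1%), C3 (82.1% to 82.4%) and MYH13 (98.5% to 99.2%). The nerve and Schwann cell markers L1CAM and NCAM1 were also higher in Angus, with shares of the deepest Angus library of 50% to 50.5% for L1CAM and 17.3% to 46.4% for NCAM1. Of 8 neutrophil and monocyte markers, 4 endothelial markers and 4 red blood cell markers, 0 were listed. The part of other cell types in the values of SLC2A3 and FBP1 was not tested.

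An EST cluster of 823 bases that the authors' annotation matched to insulin receptor substrate 1 (IRS1), the docking protein below the insulin receptor, shared this distribution. It too was found after the values were seen. It had means of 25.4 RPKM (Angus) and 11.9 RPKM (Luxi) by the authors' deposited table, with 263 to 265 reads in the deepest Angus library, 47 to 51 in the middle and 42 to 44 in the shallowest. With the deepest Angus library left out, its log2 ratio of Luxi over Angus turned from -1.09 to between 0.22 and 0.25. In the authors' annotation this cluster and FBP1 were the only 2 of 232 entries assigned to the response to an insulin stimulus.

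**Figure D2:**
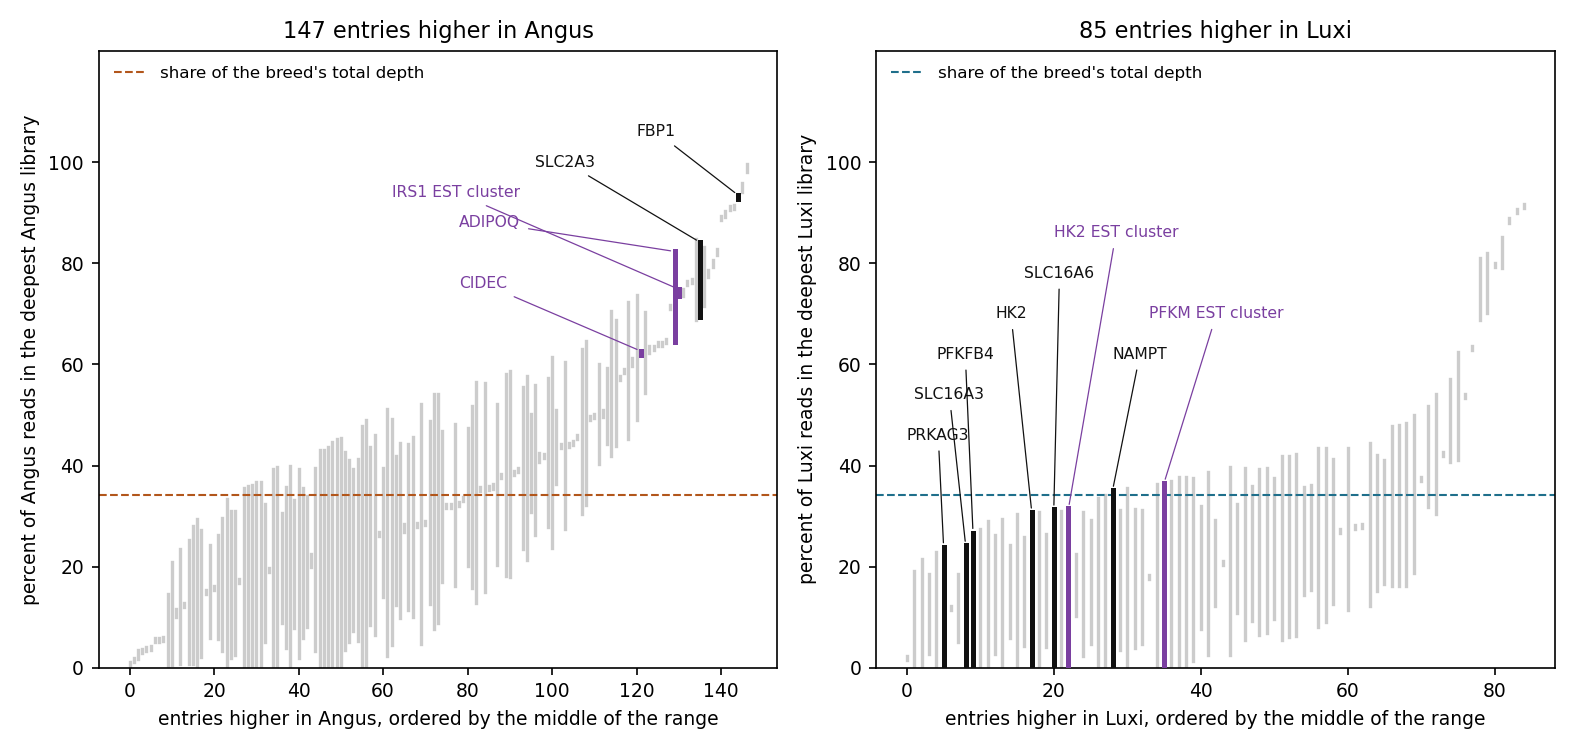
Percent of a breed's reads that its deepest library held (y axis, bar from lowest to highest over all solutions), for the 147 entries higher in Angus (left) and the 85 higher in Luxi (right), each ordered along the x axis by the middle of the range. Black bars are the 8 genes, purple bars the EST clusters and adipocyte markers named in the text, and the dashed line is the deepest library's share of the breed's depth; SLC2A3 and FBP1 lie far above it, and 5 of the 6 genes higher in Luxi lie below it.

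Phosphofructokinase itself appeared through another EST cluster, of 816 bases, which the authors' annotation matched to the muscle type enzyme PFKM and which was found after the values were seen. In the authors' deposited table it was listed at 0 in Angus and averaged 50.9 RPKM in Luxi. It had 734 reads over the Luxi libraries, with 2 to 265 in the deepest, 1 to 696 in the middle and 36 to 468 in the shallowest. Against the 3 reads that a count of 0 was taken to allow over the Angus libraries, it was 232-fold higher in Luxi, a log2 limit of 7.86. With the middle Luxi library left out, that limit was between 4.19 and 8.44 over the solutions. This cluster does not give the level of PFKM as a whole, which was not analysed here.

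Monocarboxylate transport had 2 genes, both higher in Luxi. SLC16A3 encodes MCT4, the transporter through which glycolytic fibres export lactate. SLC16A3 (gene identifier 510085) had means of 10.3 RPKM (Angus) and 23.2 RPKM (Luxi) by the authors' deposited table, 2.24-fold higher in Luxi. The Angus libraries held 75 to 242, 1 to 338 and 0 to 170 reads from deepest to shallowest. The Luxi libraries held 1 to 230, 7 to 612 and 353 to 729 reads.

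The shallowest Luxi library exceeded the most that any Angus library could have for SLC16A3, at 60.9 to 126 RPM against at most 60.6. The lowest Luxi library had at most 27.7 RPM and the highest Angus library at least 32.1, so the breeds overlapped in every solution. With the shallowest Luxi library left out, the log2 ratio was between -0.32 and 1.08, with no determined direction. Without any other single library SLC16A3 was higher in Luxi in every solution.

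SLC16A6 encodes MCT7, a member of the same family that has been linked to the export of ketone bodies from liver. SLC16A6 (gene identifier 529171) had means of 13.8 RPKM (Angus) and 82.4 RPKM (Luxi) by the authors' deposited table, 5.98-fold higher in Luxi and the widest ratio of the 7 genes with reads in both breeds. In Angus its level was just under that of HK2, and in Luxi it was above all but PFKFB4 and NAMPT among the 8 genes. Its Angus libraries held 100 to 214, 68 to 298 and 42 to 158 reads. Its Luxi libraries held 1 to 854, 6 to 2260 and 498 to 1899 reads.

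At least 2 of the 3 Luxi libraries exceeded every Angus library for SLC16A6. The second highest Luxi library had at least 85.9 RPM and the highest at least 201, while no Angus library had more than 53.4. SLC16A6 was higher in Luxi in every solution whichever library was left out, with a lowest log2 ratio of 0.72 without the middle Luxi library, against 2.58 with all. Direction was kept in this way by 2 of the 8 genes, SLC16A6 and FBP1, and by 56% of all listed entries.

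SLC16A6 lies within the span of another listed gene, the lysosomal sulfatase ARSG, by RefSeq's annotation of ARS-UCD2.0. Among the 148 listed entries matched to that table this was the only pair with overlapping spans. ARSG had means of 1.64 RPKM (Angus) and 7.61 RPKM (Luxi) by the authors' deposited table, 4.63-fold higher in Luxi, which was rank 9 of the 63 ratios. Its Angus reads were fixed at 22, 24 and 31 from deepest to shallowest, and its Luxi libraries held 0 to 70, 38 to 223 and 152 to 267 reads. At least 2 Luxi libraries exceeded every Angus library for ARSG, as for SLC16A6. With the shallowest Luxi library left out, the log2 ratio of ARSG was between 0.97 and 2.04, and with the middle one left out between 1.51 and 2.64, against 2.21 with all. In the same annotation SLC16A3 overlaps CSNK1D and PRKAG3 overlaps LOC101906064, which were not analysed here. The labels do not say whether the libraries kept strand, and without it reads from any stretch that such genes share cannot be assigned to either. Whether their exons overlap was not examined.

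**Figure D3:**
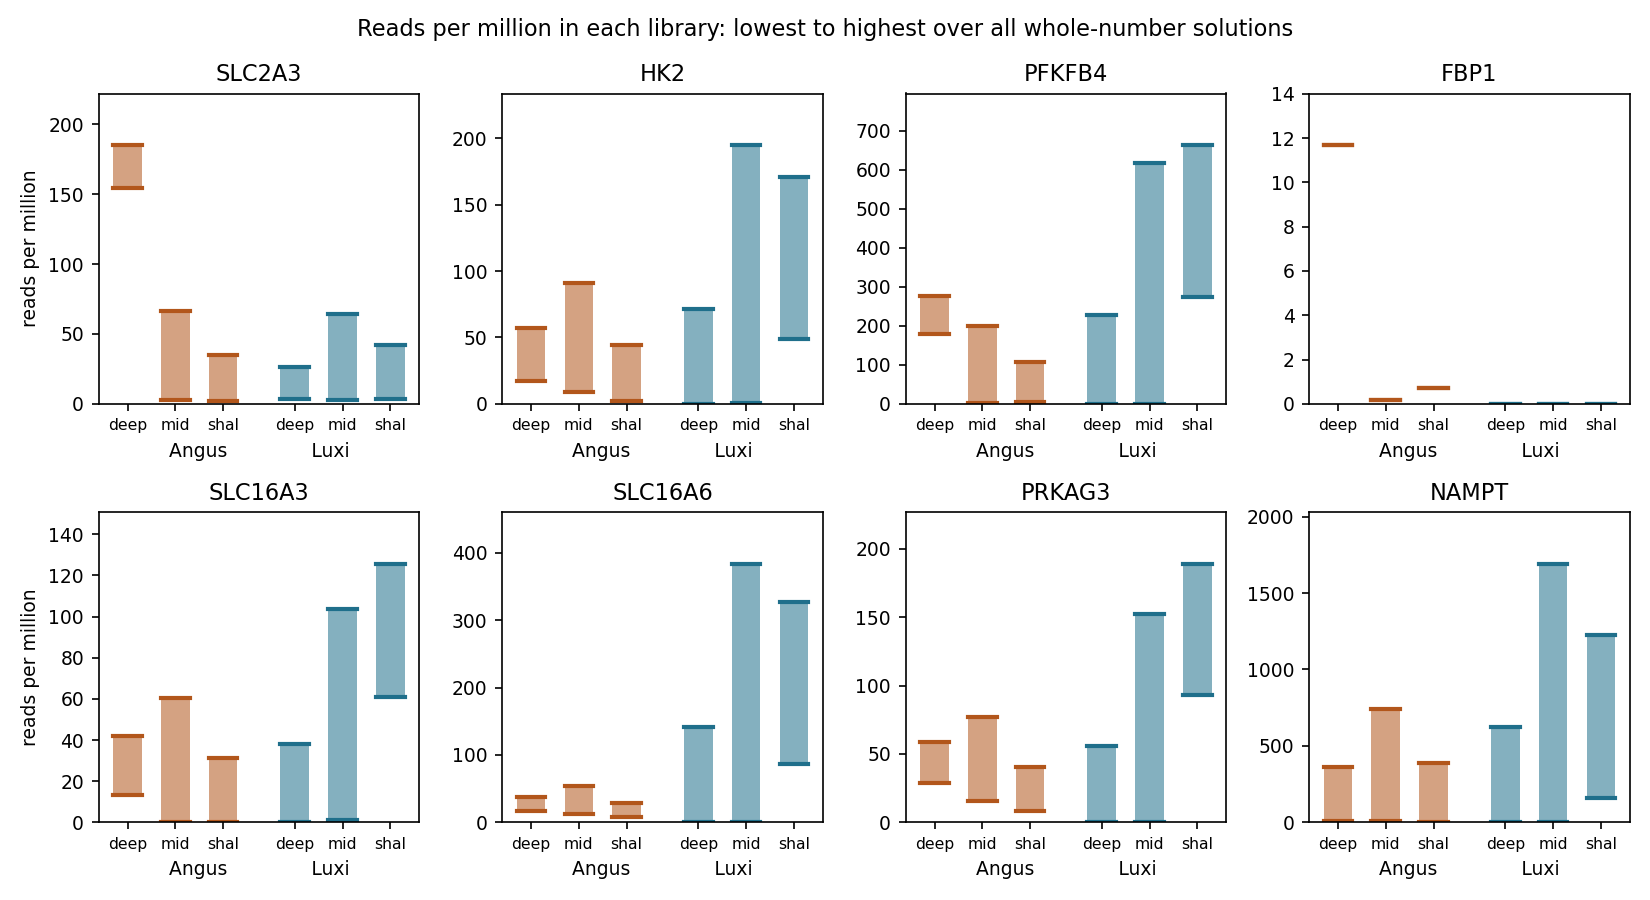
Levels in RPM (y axis) in the deepest, middle and shallowest library of Angus (brown) and Luxi (blue) for each of the 8 genes, each bar running from the lowest to the highest value over all whole-number solutions. The deepest Angus library stands apart for SLC2A3 at 154 or more and for FBP1 at 11.7, and the shallowest Luxi library of SLC16A3, SLC16A6 and PRKAG3 lies above the Angus bars.

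The energy sensor was represented by PRKAG3, the gamma 3 subunit of the AMP-activated kinase. This subunit is found mainly in fast glycolytic skeletal muscle, binds AMP, ADP and ATP, and is known from a pig variant with excess muscle glycogen. PRKAG3 (gene identifier 511961) had means of 15.2 RPKM (Angus) and 32.7 RPKM (Luxi) by the authors' deposited table, 2.14-fold higher in Luxi and close to HK2 in both breeds. Its Angus libraries held 167 to 338, 85 to 430 and 46 to 220 reads from deepest to shallowest. Its Luxi libraries held 0 to 338, 3 to 896 and 542 to 1097 reads.

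The shallowest Luxi library had 93.5 to 189 RPM for PRKAG3, above the most any Angus library could have, 77.1. The lowest Luxi library had at most 40.7 and the highest Angus library at least 48.1, so the breeds overlapped in every solution. With the shallowest Luxi library left out, the log2 ratio was between -0.44 and 0.99, below the 1.10 of all libraries in every solution and with no determined direction. Both listed fibre markers differed the other way, the fast myosin MYH4 being 28.2-fold and the slow light chain MYL3 2.62-fold higher in Angus. For MYH4 the middle Angus library held anything from 0% to 96.6% of the Angus reads. The part of fibre makeup in the value of PRKAG3 was not tested.

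NAD supply was represented by NAMPT, which makes nicotinamide mononucleotide in the salvage pathway and is also secreted by fat and immune cells. NAMPT (gene identifier 520472) had means of 53.3 RPKM (Angus) and 130 RPKM (Luxi) by the authors' deposited table, 2.43-fold higher in Luxi. With 4234 Angus and 10872 Luxi reads, scaled by mean depth, it had a counting interval of 1.23 to 1.33 in log2 ratio. Among those of the 8 genes that had reads in both breeds, NAMPT had the narrowest interval. The same abundance left its libraries the least well fixed, at 57 to 2089, 47 to 4148 and 29 to 2098 reads in Angus and 0 to 3771, 0 to 9966 and 906 to 7102 reads in Luxi. The highest Luxi library had at least 751 RPM, above the most any Angus library could have, 744. With the middle Luxi library left out, the log2 ratio was between -1.70 and 1.87, so the direction was not determined, and without the middle Angus library it was between 0.72 and 6.33.

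**Figure D4:**
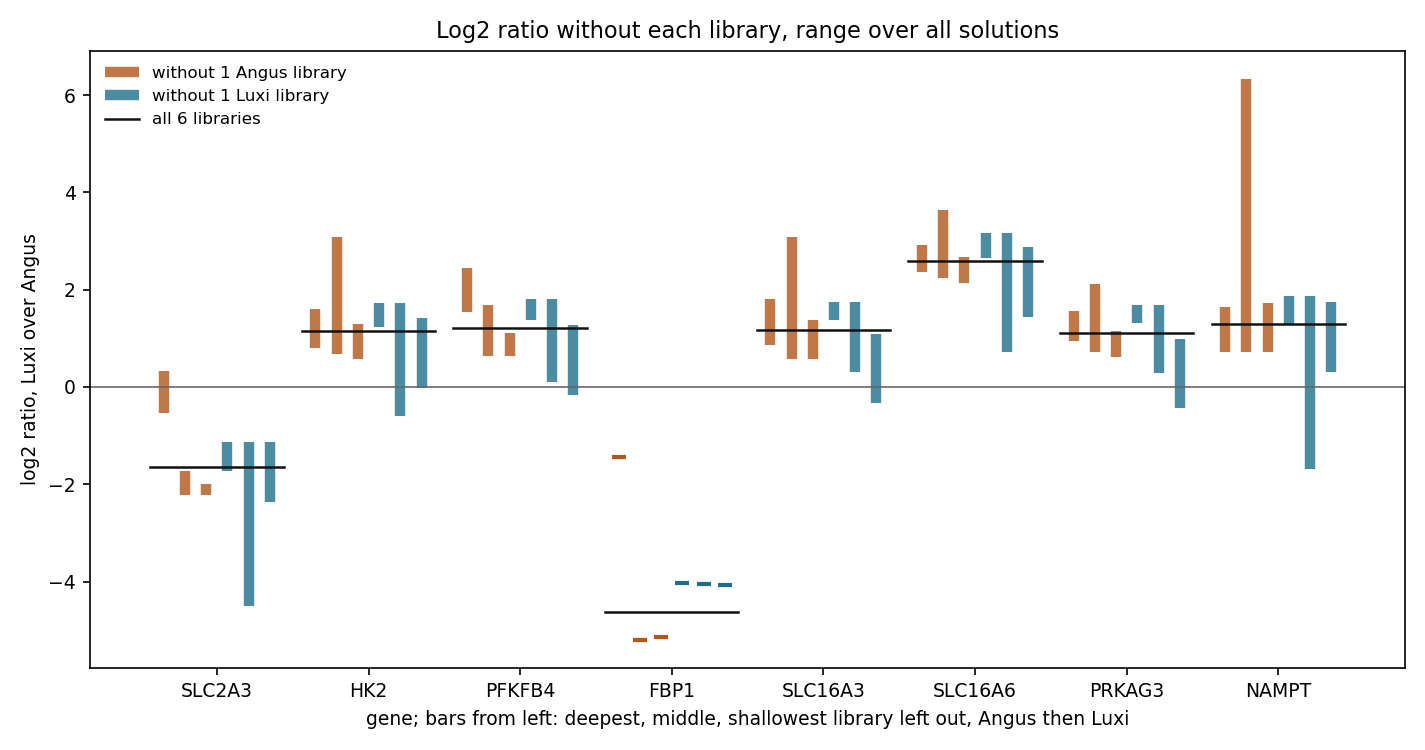
Log2 ratio of Luxi over Angus (y axis) of the 8 genes with each library left out in turn, Angus libraries in brown and Luxi libraries in blue, each from deepest to shallowest; bars run over all solutions, and black lines give the value with all 6 libraries (for FBP1 a limit set by 3 reads in Luxi). SLC2A3 reaches 0 only without the deepest Angus library, and SLC16A6 stays at 0.72 or above.

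Across the 8 genes, the breeds overlapped in every solution for 4 (SLC2A3, PFKFB4, SLC16A3 and PRKAG3), were separate for 1 (FBP1) and were not determined for 3 (HK2, SLC16A6 and NAMPT). Over the whole list 25% of entries overlapped in every solution and 27.2% were separate. Among the 6 genes higher in Luxi, the deepest Luxi library held less of the reads than its 34.1% of the Luxi depth in every solution for 5, at most 23.5% for PRKAG3, 23.8% for SLC16A3, 26.3% for PFKFB4, 30.4% for HK2 and 31.0% for SLC16A6. NAMPT was the exception, at up to 34.7%. Of all 85 entries higher in Luxi, 45.9% showed the same. The shallowest Luxi library held more than its 32.7% of depth in every solution for SLC16A3 (36.5% or more) and PRKAG3 (37.7% or more), as for 12.9% of the 85 entries.

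The other genes of the pathway were sought in the list by symbol. Of 88 genes in 11 pathway lists, the 8 genes themselves were the only ones with an entry under their own symbol. The lists with 0 entries were 16 enzymes of glycolysis from GPI to the lactate dehydrogenases, 11 genes of glycogen metabolism, 7 of pyruvate entry into mitochondria and 8 hypoxia targets such as VEGFA. PRKAG3 was the only one of 10 AMP kinase genes, NAMPT the only one of 10 NAD genes, HK2 the only one of 4 hexokinases, PFKFB4 the only one of 4 genes of its family and SLC2A3 the only one of 5 glucose transporters. Genes outside the list were not analysed here, so nothing is said of their levels.

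In the authors' annotation, 2 of the 232 entries were assigned to carboxylic acid transport, SLC16A3 and SLC16A6, both higher in Luxi. Glucose catabolism was assigned to 3 entries, HK2 and the EST clusters matching HK2 and PFKM, all higher in Luxi, 2 of them by the same protein. Fructose metabolism was assigned to 3 entries, with PFKFB4 and the PFKM cluster higher in Luxi and FBP1 higher in Angus. Hexose transport was assigned to PRKAG3 and SLC2A3, which differed in direction. These terms were looked up after the values were seen.

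The listed genes nearest in level were sought over the 2 breed means, by the distance between log2 RPKM values. GADD45A, a growth arrest gene, lay nearest to both HK2 (distance 0.25) and PRKAG3 (0.24), with 16.6 RPKM (Angus) and 37.5 RPKM (Luxi) by the authors' deposited table, followed for both by ENAH, an actin regulator. SLC16A3 had ADAMTSL4 (0.16) and PDXK (0.32), SLC2A3 had NR4A2 (0.26) and KIF22 (0.27), and NAMPT had CST6 (0.47). PFKFB4 had CST6 (0.86) and CEBPD (0.87). SLC16A6 had ART3 (0.61) and LOC100335754 (1.08). FBP1 was left out, being listed at 0 in Luxi.

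The deposited p-values did not follow the reads behind these genes. In the authors' deposited table p was 0 for PFKFB4 and PRKAG3, 4.84e-12 for NAMPT, 1.35e-14 for SLC16A6, 2.89e-13 for SLC16A3 and 4.41e-13 for HK2, although NAMPT had 10872 reads in Luxi and PRKAG3 1438. For the genes higher in Angus the authors' deposited table gave 5.43e-38 for SLC2A3 and 2.86e-08 for FBP1. When a test of 2 Poisson counts was run on the breed means, its p lay within 5% of the deposited one for these 2 genes and for none of the other 6. Such a test does not use the spread between animals, and for the other 6 genes the test behind the deposited p is not known. The 8 genes are therefore not ranked here by p.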

How the data were processed

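The one table used holds, per the file headers, a read count, an RPKM, a log2 ratio, a p-value and an FDR per entry. The deposited counts were recorded as of the estimated count kind only because a mean need not be whole. They are means of whole-number reads over 3 libraries of a breed, each a multiple of 1/3, and the deposited RPKM values, printed to 6 digits, are means likewise, with 0.001 standing in for 0. The deposited log2 ratio is that of the RPKM means, Luxi over Angus. The labels and headers name no aligner, gene set, strand or test for the authors' p-value and FDR.

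Depths and reads per library were recovered by solving count and RPKM for whole numbers, with depths searched up to 3% beyond the range that the entries allow. In each breed 1 set of depths remained, each depth known to within 4 reads. A single solution was found for 81 of 210 Angus and 55 of 207 Luxi entries with reads. The search was tested on simulated data: the true depths were found within 100 reads in 4 of 4 tables, as the only set in 3, where 277 of 277 single solutions were true. Counting intervals and limits cover counting error only, and PCR copies cannot be told from separate molecules.

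The 8 genes and the gene lists were chosen with earlier results of these data known. Named genes are the 8 genes, every listed gene of the pathway lists, and the 2 genes outside the 8 nearest to each in log2 RPKM. Some results under these rules are not reported here. Alternatives were ratios of counts, 1 RPKM added to both means, a minimum of 5 RPKM, and each library left out. Planned comparisons of promoter and protein sequences were not run, and no coordinates are printed, since no build is named. Work used Python 3.11.15, numpy 2.4.6, scipy 1.17.1, pandas 2.3.3 and numba 0.67.0.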

Additional observations from a re-analysis of the deposited data

How the results depend on the processing

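Of the 8 genes, 6 were higher in Luxi by mean RPKM, by mean counts (scaled for depth or not) and with 1 RPKM added. With a minimum of 5 RPKM in 1 breed the number was also 6, but FBP1, at 3.13 RPKM in Angus, fell below that minimum. These settings had little room to change a direction, so the unchanged number is not a test of it. The list holds only ratios of 2-fold or more, and 1 RPKM added to both means cannot reverse one. Of the log2 ratios of single genes under those settings, 2 moved from the reported value by more than it lies from the farther end of its 95% counting interval (for FBP1 computed with 3 reads in Luxi). These were the log2 ratio of Luxi over Angus of NAMPT from unscaled counts, 1.36 against 1.28, and that of FBP1 with 1 RPKM added, -2.05 against a limit of -4.63, since the added value is large beside its level.

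With 1 library left out, the number of genes higher in Luxi ran from 2 to 7 over all solutions, and the low end came without the shallowest Luxi library, where HK2, PFKFB4, SLC16A3 and PRKAG3 were not determined. Over all libraries left out and all solutions the log2 ratio ran from -4.50 to 0.32 for SLC2A3, -0.60 to 3.07 for HK2, -0.17 to 2.45 for PFKFB4, -5.20 to -1.44 for FBP1, -0.32 to 3.07 for SLC16A3, 0.72 to 3.64 for SLC16A6, -0.44 to 2.12 for PRKAG3 and -1.70 to 6.33 for NAMPT. These ranges hold both the spread over solutions and the differences between libraries, whose cause was not tested. No paired analysis was made. The labels name no link between an Angus and a Luxi animal, and the deposited columns are breed means that carry no replicate numbers.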
